A study of Mus musculus with 56 samples.

Results

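Dbp, Tef and Hlf encode the 3 PAR bZIP transcription factors, and Nfil3 (E4BP4) encodes the related bZIP repressor. They are 4 of the 17027 genes in the kidney table, taken by name and not by their values. The table covers kidneys of 56 female C57BL/6J mice aged 9 weeks, all on chow under a cycle of light and dark of equal length, with 4 mice in each of 14 groups. Mice had food only by night (nighttime-restricted feeding, NRF, the reference) or only by day (daytime-restricted feeding, DRF) for 7 days. The sampling times were ZT0, ZT4, ZT8, ZT12, ZT16, ZT20 and ZT24, where ZT (zeitgeber time) counts the hours from the start of light. The comparison of regimens asks whether the activators and their repressor stayed with the light or moved with the meals.

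PAR bZIP proteins bind D-box elements and activate transcription, and NFIL3 binds the same elements and represses. DBP, TEF and HLF are known outputs of the circadian clock, driven through E-boxes by CLOCK and BMAL1, whereas Nfil3 is driven by ROR factors and repressed by REV-ERB proteins through ROR elements. In liver and kidney the PAR bZIP factors are known for daily control of detoxification genes.

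Levels are given in TPM, reads per exon length scaled to the same sum in each library, recovered on a linear scale from the deposited scores, and levels of different genes are compared per length on that scale. Tef, Hlf and Nfil3 came out as whole reads in 100% of their values, with 2232 to 15583, 2255 to 6712 and 90 to 1098 reads per library. Dbp had 26.2 to 6288.5 reads and only 14.3% whole values, so its exon length of 2993 bases is an assumption. With the 1837 bases of transcript Dbp-201, its mean at NRF ZT12 was 43.7 TPM in place of 222 TPM. The signs of the called differences of Dbp were kept and its peak times changed little, but its levels, fold changes and ratios to other genes depend on that length. Exons of Dbp share 539 bases with Sphk2 and exons of Tef share 193 bases with Gm17597, both on the opposite strand, and without strand such reads cannot be told apart.

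The libraries held 25.33 to 28.05 M recovered reads (M for mega). Kidney markers were present throughout, with Umod at 2515 to 6623 TPM and Slc34a1 at 1872 to 4119 TPM. Medulla markers (4 of 4 measured, summed) had group means from 462 TPM at DRF ZT0 to 1251 TPM at DRF ZT8, blood markers (5 of 5) from 1820 TPM at NRF ZT0 to 6432 TPM at DRF ZT8, liver markers (5 of 5) from 238 to 375 TPM and cortex markers (4 of 4) from 3627 to 4335 TPM. Immune markers (10 of 10) had group means from 155 to 268 TPM and adrenal markers (2 of 5 measured, with Cyp11a1 near 0) from 3.91 to 5.3 TPM. Fat markers (4 of 4) ranged from 0.209 to 597 TPM, highest in NRF ZT12 replicate 1. NRF ZT8 replicate 4 had the lowest summed kidney markers, 36145 TPM, and the lowest blood markers, 702 TPM. The kidney sum, with a median of 84605 TPM over libraries, was mostly 1 gene, Kap (mean 74534 TPM, 27148 to 137990 TPM). A low sum therefore reflects Kap more than the other kidney markers. In bulk kidney, fewer cells of a type and less RNA per cell cannot be told apart, and the part of these marker differences in the results was not tested beyond leaving out both named libraries.

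The promoters show which clock-linked elements stand near the start sites of these genes. RefSeq promoter windows (GRCm38.p6, 250 bases before to 50 bases after the start) were found for all 4 genes, with 2 windows for Tef. Each was searched on both strands for CACGTG (E-box), TTATGTAA (D-box), TAGGTCA (core of the ROR element) and TGACGTCA (cAMP response element). The stretches that hold a match are printed 5′ to 3′ on the gene's strand, with the match in capitals.
Tef, first window, chr15:81802526-81802571 (+): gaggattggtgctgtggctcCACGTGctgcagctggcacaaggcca
Tef, second window, chr15:81811256-81811301 (+): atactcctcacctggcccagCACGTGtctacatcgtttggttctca
Hlf, chr11:90390899-90390946 (-): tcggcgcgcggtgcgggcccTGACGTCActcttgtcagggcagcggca
Nfil3, chr13:52981025-52981071 (-): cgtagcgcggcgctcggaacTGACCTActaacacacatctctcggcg
Both Tef windows held an E-box, which 7.15% of all 32851 windows hold. The Hlf window held a cAMP response element, present in 1.79% of windows, and the Nfil3 window held the ROR core on the reverse strand, present in 2.61%. The Dbp window, chr7:45704997-45705296 (+), held none of these letters. The D-box was in 0.938% of windows and in none of these. A match is a description of the sequence and was not tied to binding.

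Dbp, the activator with the widest daily swing, climbed from near nothing at lights on to its highest level late in the light phase. Under NRF its 4 values at ZT0 were 2.53, 1.78, 2.69 and 1.48 TPM, and at ZT12 they were 211, 222, 242 and 212 TPM. Means ran from 1.51 ± 0.566 TPM at ZT24 to 222 ± 14.1 TPM at ZT12 (SD, n = 4), a ratio of 147. Under DRF the highest mean came at ZT8, 152 ± 34.8 TPM, and the lowest at ZT20, 10.3 ± 2.48 TPM, a ratio of 14.8. At ZT12 the DRF values were 63.6, 43.2, 53.2 and 33.0 TPM, all far below the NRF values. The peak was therefore reached sooner and the floor was higher under DRF.

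Tef, the second activator, had a smaller swing than Dbp, with its highest mean at the same time point in each regimen. Under NRF its mean rose from 37.6 ± 3.09 TPM at ZT24 to 222 ± 4.43 TPM at ZT12, where the 4 mice had 222, 222, 228 and 217 TPM. Under DRF the highest mean was 175 ± 14.2 TPM at ZT8, and the 4 mice at ZT12 had 150, 142, 138 and 137 TPM. The ratio of the highest to the lowest mean was 5.9 under NRF and 3.12 under DRF.

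Hlf, the third activator, swung least. Its mean ran from 40.8 ± 1.78 TPM at ZT24 to 105 ± 13.2 TPM at ZT12 under NRF, and from 50.8 ± 8.47 TPM at ZT0 to 97.4 ± 13.9 TPM at ZT12 under DRF. The ZT12 values overlapped, 110, 111, 112 and 84.8 TPM under NRF and 91.7, 100, 82.4 and 115 TPM under DRF.

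Nfil3, the repressor, was highest under NRF at lights on, when the activators were low, and under DRF at ZT16, when Dbp was low (13.4 TPM) but Tef (128 TPM) was not. Under NRF the 4 mice had 52.5, 54.4, 55.4 and 58.8 TPM at ZT0, and the mean fell to 7.22 ± 1.46 TPM at ZT8. Under DRF the highest mean was 51.2 ± 4.9 TPM at ZT16, and the lowest was 7.4 ± 2.23 TPM at ZT8. At ZT12 the values were 7.1, 12.3, 11.0 and 16.9 TPM under NRF and 21.5, 28.3, 24.3 and 35.0 TPM under DRF. The DRF rise of Nfil3 was thus already visible at lights off, in groups that did not overlap, as in 22.7% of genes tested.

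**Figure D1:**
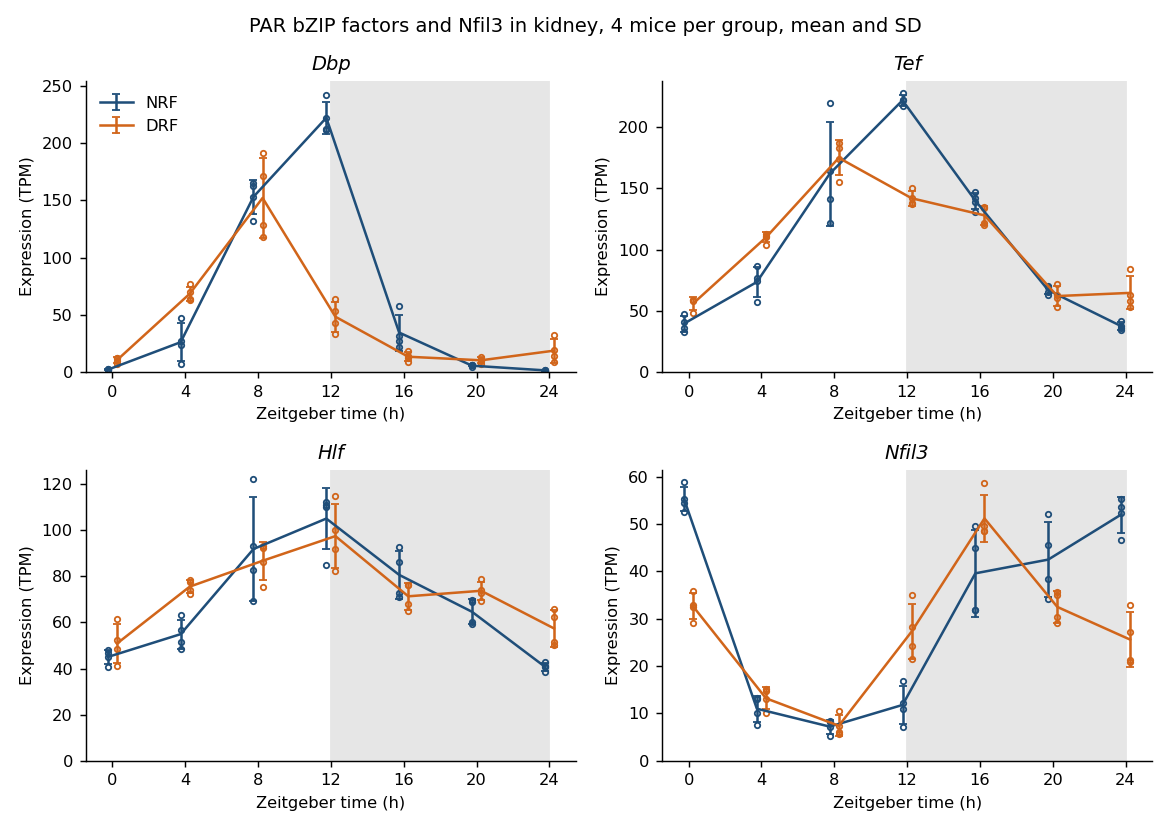
Expression in TPM (vertical axes, from 0) against zeitgeber time in hours for Dbp, Tef, Hlf and Nfil3, with NRF in blue, DRF in orange, open circles for single mice, lines through the means of 4 mice, SD bars and grey for the dark phase. The DRF curves of Dbp and Tef turn down after ZT8 while the NRF curves reach 222 TPM at ZT12, and Nfil3 under DRF peaks at ZT16 (51.2 TPM) rather than at ZT0 (55.3 TPM under NRF).

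Ordered by level per length over each regimen's 28 mice, Tef led with 106 TPM under NRF and 105 TPM under DRF. Hlf followed with 68.9 and 73.3 TPM, Dbp with 63.5 and 45.9 TPM, and Nfil3 was lowest with 31.3 and 27.1 TPM. The place of Dbp rests on its assumed length, and with the shorter length Dbp, not Nfil3, was lowest in both regimens. At ZT8 under NRF, Dbp (132 to 165 TPM) and Tef (122 to 220 TPM) overlapped with the assumed length. With the shorter length Dbp was at 34.7 ± 1.92 TPM there, below Tef. Hlf under NRF at ZT24 (38.6 to 42.9 TPM) overlapped with Tef (34.7 to 41.9 TPM).

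All 4 genes oscillated over 24 h under both regimens. In limma's moderated F test of a 24-h cosine on log2(TPM + 1), with Benjamini-Hochberg adjustment over 11532 genes, 4 of 4 were called under NRF, where 53.5% of all genes tested were, and 4 of 4 under DRF, where 34.9% were. The fitted amplitude, the height of the cosine above its mean, was 3.26 ± 0.13 (SE) for Dbp under NRF, rank 1 of the genes tested, and 1.97 ± 0.14 under DRF. With the shorter length of Dbp these amplitudes were 2.16 and 1.27, ranks 2 and 11. Amplitudes under NRF and DRF were 1.23 ± 0.05 and 0.80 ± 0.06 for Tef, 0.61 ± 0.05 and 0.35 ± 0.05 for Hlf, and 1.52 ± 0.12 and 1.14 ± 0.12 for Nfil3. The least rhythmic was Hlf under DRF, with an adjusted p of 3.09e-05 by limma. Over all genes tested the median amplitude was 0.13 under NRF and 0.11 under DRF.

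Fitted peaks came in the order Dbp, Tef, Hlf and then Nfil3 under both regimens, and each fitted peak was earlier under DRF. The order of Tef and Hlf is not resolved. Their gap was 0.392 h under NRF and 0.818 h under DRF, near the SE of the Hlf peak (0.349 and 0.617 h). Under NRF the fitted peaks were at ZT 10.6 ± 0.171 h for Dbp, 11.7 ± 0.175 h for Tef, 12.1 ± 0.349 h for Hlf and 20.5 ± 0.281 h for Nfil3 (SE). Under DRF they were at 7.83 ± 0.251 h, 10.2 ± 0.284 h, 11.0 ± 0.617 h and 18.4 ± 0.352 h. The DRF minus NRF shift was -2.79 ± 0.304 h for Dbp, -2.13 ± 0.451 h for Nfil3, -1.53 ± 0.334 h for Tef and -1.11 ± 0.71 h for Hlf. A move of the whole rhythm with the meals would have been 12 h. On this log2 scale Dbp had the largest fitted shift of the 4 genes. On the TPM scale Nfil3 had the largest (-3.05 ± 0.529 h, against -2.69 ± 0.581 h for Dbp). Differences between the genes' shifts were not tested.

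Of 2823 genes rhythmic under both regimens, 72.5% peaked earlier under DRF, 63.4% had a lower amplitude, and 36.3% shifted by at most 4 h. All 4 members did each of these. The median shift of those genes was -3.45 h, with shifts counted up to 12 h earlier or later. Near 12 h the direction is arbitrary, so this median and the share that peaked earlier cannot be read as a typical shift. The ratio of DRF to NRF amplitude was 0.606 for Dbp, 0.653 for Tef, 0.579 for Hlf and 0.746 for Nfil3, against a median of 0.869. The rhythm itself differed between regimens for 4 of 4 (limma F test of regimen by cosine interaction), where 45.3% of the genes tested were called. The adjusted p was 1.19e-12 for Dbp, 1.43e-07 for Tef, 0.00399 for Hlf and 9.07e-05 for Nfil3.

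**Figure D2:**
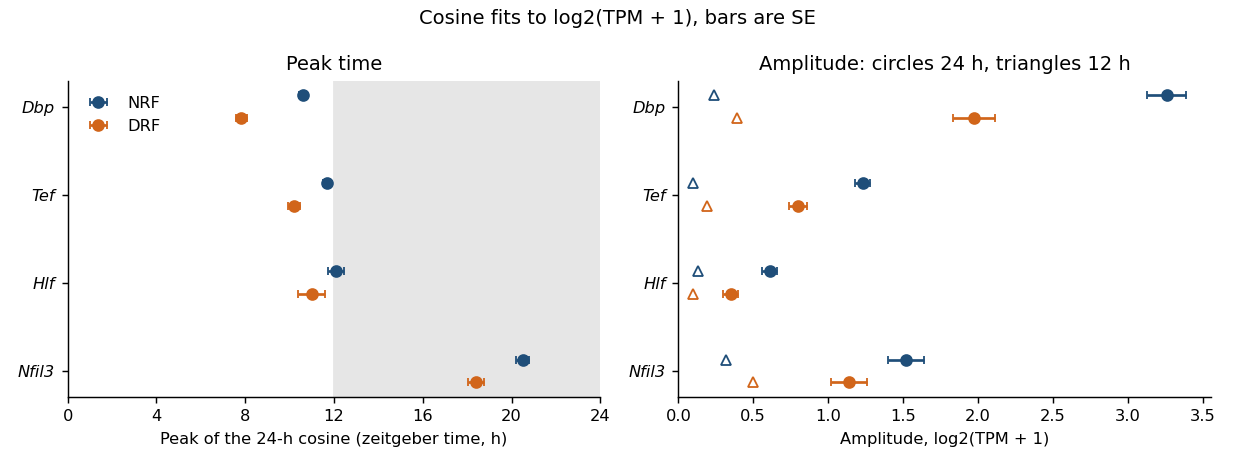
Left, fitted peak time in hours of zeitgeber time with SE for each gene under NRF (blue) and DRF (orange), dark phase in grey. Right, amplitude on the log2(TPM + 1) scale with SE for the 24-h cosine (circles) and the 12-h component (triangles). Every orange circle lies to the left of its blue one in both panels, by 1.11 to 2.79 h in peak time.

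On the TPM scale, a cosine was fitted in each regimen and a 2-sided permutation test swapped NRF and DRF labels among mice of the same ZT (100000 resamples, 12 tests, p not adjusted). Such swaps assume regimens that are alike in every respect. Where peak times differ, the p for amplitude or mean level does not test that parameter alone. The amplitude was lower under DRF for each gene. It fell from 101 ± 9.66 to 63.3 ± 7.6 TPM for Dbp (permutation p = 0.017), from 86.4 ± 4.87 to 56.6 ± 3.8 TPM for Tef (permutation p = 0.004), from 29.6 ± 2.85 to 18.0 ± 2.59 TPM for Hlf (permutation p = 0.0041) and from 25.4 ± 2.48 to 18.2 ± 2.05 TPM for Nfil3 (permutation p = 0.0043). The Dbp amplitude call was lost without replicate 3 (permutation p = 0.077) and without replicate 4 (permutation p = 0.072), and the Nfil3 call without ZT0 (permutation p = 0.058). Peak times moved by -2.69 ± 0.581 h for Dbp and -3.05 ± 0.529 h for Nfil3, each with a permutation p of 1e-05, the smallest the test can give, and by -1.55 ± 0.367 h for Tef (permutation p = 2e-05). The shift of Hlf, -1.01 ± 0.74 h, did not pass the test (permutation p = 0.18). Without NRF ZT8 replicate 4, the library with the lowest summed kidney markers, it was -1.39 h (permutation p = 0.034).

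The mean level over the day, the mesor, was not shown to differ. In the 14-group limma fit 0 of 4 were called, where 10% of genes tested were. At an unadjusted p under 0.05 the count was 1 of 4, Hlf with 0.11 ± 0.05 on the log2 scale (adjusted p = 0.144). The share of all genes at that unadjusted level was not counted. Without NRF ZT8 replicate 4 the adjusted p of Hlf was 0.0409 by limma. On the TPM scale the mesor of Dbp fell from 76.8 ± 7.15 TPM with night meals to 49.9 ± 5.18 TPM with day meals (permutation p = 0.029), but on the log2 scale its difference had the opposite sign, 0.20 ± 0.12 (adjusted p = 0.322 by limma). The Dbp call on the TPM scale was also lost whenever 1 replicate number was left out (permutation p from 0.065 to 0.098). It was lost with the shorter length as well (permutation p = 0.11).

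At single time points the activators and the repressor parted in opposite directions around lights on and lights off. At ZT12, 3 of 4 genes differed between regimens in the limma contrast, where 19.0% of genes tested did. Dbp was lower under DRF by a log2 difference of -2.22 ± 0.32 (adjusted p = 1.8e-06), Tef was lower by -0.65 ± 0.12 (adjusted p = 0.000107), and Nfil3 was higher by 1.17 ± 0.19 (adjusted p = 1.05e-05). These are 0.215, 0.638 and 2.26 times the NRF level on the log2(TPM + 1) scale, and in each the groups did not overlap, as in 22.7% of genes. Hlf did not pass, with -0.10 ± 0.12 (adjusted p = 0.604).

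At ZT24, 4 of 4 differed, where 15.4% of genes tested did. Dbp was 32.8, 19.5, 13.9 and 8.45 TPM under DRF and 1.81, 2.16, 1.06 and 1.01 TPM under NRF. Its log2 difference was 2.84 ± 0.32 (adjusted p = 1.08e-08). Tef was higher by 0.75 ± 0.12 (adjusted p = 1.78e-05) and Hlf by 0.47 ± 0.12 (adjusted p = 0.00443). Nfil3 was lower by -1.02 ± 0.19 (adjusted p = 0.000109), with 21.2, 33.0, 27.1 and 20.9 TPM under DRF and 46.6, 52.4, 55.3 and 53.6 TPM under NRF. No group of the 4 genes overlapped with its counterpart at this time, as in 21.9% of genes tested.

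At ZT0, the same clock time 1 day earlier, 3 of 4 differed, where 18.6% of genes tested did. Dbp was higher by 1.86 ± 0.32 (adjusted p = 3.32e-05), Tef was higher by 0.50 ± 0.12 (adjusted p = 0.00243), and Nfil3 was lower by -0.75 ± 0.19 (adjusted p = 0.00324), while Hlf gave 0.16 ± 0.12 (adjusted p = 0.38). The Tef call at ZT0 was lost without replicate 2 (adjusted p = 0.0723 by limma). Between ZT24 and ZT0 within a regimen, 0 of 4 genes differed under NRF, where 0.52% of genes tested did, and 0 of 4 under DRF, where 0% did (limma contrasts). At an unadjusted p under 0.05 the counts were 0 and 1, the latter for Dbp under DRF with 0.66 ± 0.32.

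At ZT4, 3 of 4 differed, the 3 activators, where 28.2% of genes tested did. All were higher under DRF, as were 10.4% of genes tested, Dbp by 1.61 ± 0.32 (adjusted p = 0.000145), Tef by 0.58 ± 0.12 (adjusted p = 0.000266) and Hlf by 0.46 ± 0.12 (adjusted p = 0.0031). Dbp had 69.5, 76.7, 64.0 and 63.2 TPM under DRF and 6.99, 26.9, 46.9 and 23.6 TPM under NRF, with a wide NRF spread. Nfil3 gave 0.26 ± 0.19 (adjusted p = 0.319).

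At ZT8, near the trough of Nfil3, 0 of 4 differed by limma at an adjusted p under 0.05, where 15.6% of genes tested did. None of the 4 had an unadjusted p under 0.05 either. Dbp had 191, 171, 118 and 128 TPM under DRF and 132, 165, 153 and 162 TPM under NRF. Medulla and blood markers were at their highest group means in DRF ZT8, as given above.

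At ZT16, 1 of 4 differed, Dbp with -1.26 ± 0.32 (adjusted p = 0.0119), where 6.08% of genes tested did. This call was lost without replicate 2 (adjusted p = 0.0862) and without replicate 4 (adjusted p = 0.0979). Nfil3 gave 0.39 ± 0.19 there (adjusted p = 0.223). At ZT20, 0 of 4 passed in limma, where 17.3% of genes tested did. The share of all genes at an unadjusted p under 0.05 was not counted. Of the members 1 of 4 was under it, Dbp with 0.76 ± 0.32 (adjusted p = 0.0957). Its groups at ZT20 did not overlap, as in 15.4% of genes tested, and without replicate 1 it passed with 0.91 (adjusted p = 0.0166).

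**Figure D3:**
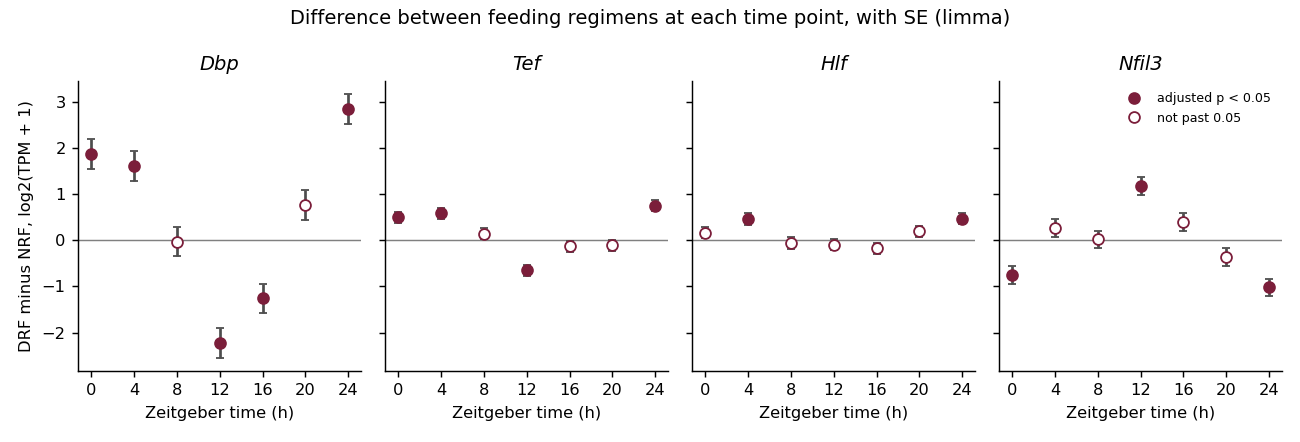
DRF minus NRF difference on the log2(TPM + 1) scale at each zeitgeber time in hours, with SE from the 14-group limma fit, for Dbp, Tef, Hlf and Nfil3, where filled points passed an adjusted p of 0.05. Dbp runs from 2.84 at ZT24 to -2.22 at ZT12, and Nfil3 runs the other way, from -1.02 at ZT24 to 1.17 at ZT12.

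The balance of activator to repressor is the ratio of their TPM values within a mouse, given as a description. Under NRF at ZT0 and ZT24, Nfil3 was above Tef and above Hlf in each of the 4 mice of both groups. The mean log2 ratio of Tef to Nfil3 was -0.50 ± 0.20 at ZT0 and -0.47 ± 0.22 at ZT24, and that of Hlf was -0.30 ± 0.17 and -0.35 ± 0.15 (SD, n = 4). Under DRF, Tef and Hlf stayed above Nfil3 in all 4 mice at each time point, with the lowest mean log2 ratio at 0.78 for Tef (ZT0) and 0.48 for Hlf (ZT16). The time of day at which the repressor transcript was the more abundant was thus not seen for these pairs at the times sampled under DRF. These signs rest on the union of annotated exons, 7867 bases for Tef, 6681 for Hlf and 2026 for Nfil3. Shorter expressed transcripts were not tested and could change the sign of ratios this near 0.

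At ZT8 the balance was most in favour of the activators and nearly equal in both regimens. There the Tef to Nfil3 ratio was 22.2 under NRF and 24.3 under DRF, and that of Hlf was 12.7 and 12.0. At ZT12 the Tef ratio was 19.7 under NRF and 5.27 under DRF. The span between the highest and lowest mean log2 ratio was 4.98 under NRF and 3.82 under DRF for Tef, and 4.01 and 3.11 for Hlf. For Dbp it was 9.61 and 6.36 with its assumed length, with Nfil3 the higher by 36.2 times at NRF ZT24 and by 3.96 times at DRF ZT16. With the shorter length the mean log2 ratio of Dbp to Nfil3 was -5.46 at NRF ZT24 and -2.97 at DRF ZT16.

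**Figure D4:**
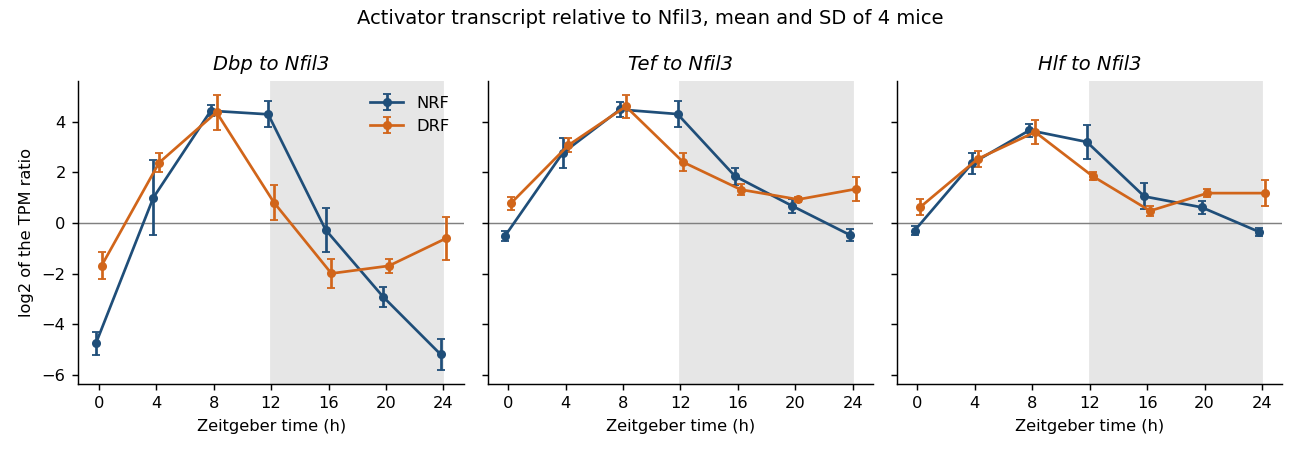
Log2 of the ratio of Dbp, Tef and Hlf to Nfil3 in TPM against zeitgeber time in hours, means of 4 mice with SD, NRF in blue and DRF in orange, with the dark phase in grey. With the annotated exon lengths, the blue line for Tef and Hlf dips below 0 at ZT0 and ZT24 (-0.50 and -0.47 for Tef) and the orange line does not.

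The repressor trailed each activator by 7 to 11 h. Nfil3 peaked 9.9 h after Dbp under NRF (9.84 to 9.97 h in fits that leave out 1 replicate number) and 10.6 h under DRF (10.5 to 10.8 h). It peaked 8.78 h after Tef under NRF (8.56 to 8.95 h) and 8.19 h under DRF (7.98 to 8.49 h), and 8.39 h after Hlf under NRF (8.21 to 8.54 h) and 7.37 h under DRF (6.93 to 7.56 h). Among the activators, Tef trailed Dbp by 1.11 h under NRF (0.941 to 1.27 h) and by 2.37 h under DRF (2.26 to 2.48 h). Hlf trailed Dbp by 1.51 h (1.38 to 1.63 h) and 3.19 h (2.92 to 3.52 h). The activator peaks were therefore spread over a longer part of the day under DRF in these fits, for which no test was run. For Dbp and Nfil3 under NRF the leave-one-out range was narrower than the SE of the peaks (0.171 and 0.281 h), so it understates the error. On the TPM scale Dbp and Nfil3 peaked at 10.4 and 20.9 h under NRF and at 7.76 and 17.9 h under DRF. Their gap was not wider under DRF on that scale.

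Whole profiles were also laid over each other. Over 6 clock times, the DRF profile correlated with the unmoved NRF profile at r = 0.72 for Dbp, 0.88 for Tef, 0.89 for Hlf and 0.81 for Nfil3. With the NRF profile moved by 12 h, as meals were, r was -0.70, -0.85, -0.79 and -0.68. For Dbp the best match was the NRF profile moved 20 h later, that is 4 h earlier (r = 0.92), and for the other 3 genes it was the unmoved profile. These are descriptions over 6 points that share libraries.

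A 12-h component was tested on top of the 24-h cosine. Beside a larger 24-h term it describes the shape of the curve, and a call does not show 2 peaks a day. Under NRF limma called 0 of 4, where 0.676% of genes tested were called. At an unadjusted p under 0.05 there were 2 of 4, Hlf and Nfil3, and the share of all genes at that level was not counted. Under DRF 3 of 4 were called, where 25.2% of genes tested were. The strongest was Nfil3, with a 12-h amplitude of 0.50 (adjusted p = 1.98e-05) and crests of this component at 1.82 and 13.8 h. The Nfil3 means themselves were highest at ZT16 (51.2 TPM) and fell to 32.5 TPM at ZT20 and 25.6 TPM at ZT24. Tef followed with a 12-h amplitude of 0.19 (adjusted p = 0.00642) and Dbp with 0.39 (adjusted p = 0.0412). Hlf had 0.10 (adjusted p = 0.299). The 12-h amplitude was 0.442 of the 24-h amplitude for Nfil3, 0.243 for Tef and 0.196 for Dbp. The median over all genes tested was 0.818, but only 34.9% of those genes had a 24-h rhythm under DRF, so the sets are unlike. The Tef call was lost without replicate 3 (adjusted p = 0.0726) and without replicate 4 (adjusted p = 0.0668). The Dbp call was lost in several alternatives, including the deposited scores (adjusted p = 0.0535) and leaving out replicate 2, 3 or 4 (adjusted p from 0.139 to 0.258).

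The core clock genes that drive or repress these factors are given beside the shares over all genes. Of 16 listed genes, 15 were tested (not Rorb). Under NRF 15 were rhythmic (53.5% of all genes tested), under DRF 13 (34.9%) and under both 13 (24.5%). Of these 13, 12 peaked earlier under DRF (72.5% of all genes rhythmic under both), 12 shifted by at most 4 h (36.3%) and 12 had a lower amplitude (63.4%). Their median shift was -1.9 h. That of all genes rhythmic under both was -3.45 h, with the limit given above. The interaction test called 14 of 15 (45.3% of all genes tested). Npas2, a partner of BMAL1, moved from 23.9 to 22.0 h with amplitudes of 2.01 and 1.74. Ciart, a CLOCK:BMAL1 repressor, moved from 10.9 to 8.56 h, Per2, a core repressor, from 14.7 to 11.4 h, and Nr1d1 (REV-ERBα), which represses Nfil3, from 7.8 to 5.17 h. Nr1d1 had fractional reads, like Dbp. The exception in direction was Rora, an activator at ROR elements, with a shift of 8.31 h and small amplitudes of 0.29 and 0.30. The mesor was higher under DRF for Nr1d2 (0.23 ± 0.06, adjusted p = 0.00859 by limma) and lower for Bhlhe41 (-0.26 ± 0.07, adjusted p = 0.00662 by limma).

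Of 19 listed genes described as regulated through D-boxes, 11 reached a mean of 1 TPM and were tested, and many of the others are known as liver genes. Under NRF 8 of 11 were rhythmic (53.5% of all genes tested), under DRF 3 (34.9%) and under both 3 (24.5%), and the interaction test called 5 (45.3%). The 3 genes rhythmic under both were Usp2, Alas1 and Cyp2a5. Of these, 1 had a lower amplitude under DRF (63.4% of all genes rhythmic under both). Usp2, a deubiquitinase, moved from 12.6 to 10.9 h with amplitudes of 0.99 and 0.84 (adjusted p of the interaction 0.00233 by limma). Alas1, the rate-limiting enzyme of heme synthesis, moved from 17.0 to 9.29 h, and its amplitude was 0.52 under NRF and 0.86 under DRF (adjusted p of the interaction 2.44e-09 by limma). Cyp2a5, a cytochrome P450, peaked at 14.2 h under NRF and shifted by only -0.24 h, with amplitudes of 0.76 and 0.94. The interaction test did not call Cyp2a5 (adjusted p = 0.704 by limma). Cyp2a5 had a lower mesor under DRF (-0.60 ± 0.15, adjusted p = 0.00446 by limma). Its reads were fractional and its near-identical neighbour Cyp2a4 can share them, so its values are uncertain. In all, the mesor was lower for 3 of 11 and higher for 1, Aldh1a1 (0.28 ± 0.09, adjusted p = 0.0313 by limma), where 7.24% and 2.78% of genes tested were called lower and higher.

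Across the 14 group means of log2(TPM + 1), the genes most like each member were ranked among 7708 genes with a mean of at least 10 TPM, as a description over groups whose libraries are shared. Nr1d2 was most like Dbp (r = 0.944), followed by Tns2, Cpeb3, Tef (r = 0.916) and Slc13a2. Per3 was most like Tef (r = 0.98) and Hlf (r = 0.954). Next for Tef came Cpeb3, Herpud1, Ndel1 and Hlf, and for Hlf came Tef and Cry2. For Nfil3 they were Rhobtb1 (r = 0.936), Trib2, A1cf, Rhov and Abitram. The profiles most opposed to Dbp were those of Ppard (r = -0.935), Avpr1a, Npnt, Ddit4l and Gramd4, and Nfil3 stood at rank 33 from that end (r = -0.852). Nfil3 correlated with Tef at r = -0.619 and with Hlf at r = -0.55, so its profile mirrored that of Dbp more closely than those of Tef and Hlf.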

How the data were processed

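Poly(A) RNA from 56 kidneys was sequenced as paired-end reads on BGISEQ-500, and the submitters' processing notes name HISAT2, Bowtie2 and RSEM with the builds mm10 and GRCm38.p6. The authors deposited 1 table of 17027 genes whose values they named TPM. The deposited values are treated here as a score: log2(CPM + 1) divided by gene length and scaled per sample, with column sums of 999145 to 999753. Reads were recovered by finding each sample's library size and scale at which values became whole reads (tolerance 0.05), with exon lengths from GENCODE M21. This gave whole reads for 85.2% of genes, and 99.89% of their values were whole in the lowest library. TPM on a linear scale was then computed from reads and lengths. Genes were named through RefSeq identifiers. Replicates are separate mice, and 84 replicate pairs all differed by at least 2.879 times counting noise. 1 NRF ZT24 column matched its group but carried no replicate number of the labels, and was used as a member of the group.

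Genes with a mean of at least 1 TPM (11532) were tested on log2(TPM + 1) by limma 3.58.1 (R 4.3.3) using a mean-variance trend, Benjamini-Hochberg adjustment over all genes and a threshold of 0.05. A fold change on this scale understates that of low genes. ZT24 shared the phase of ZT0. Cosines on TPM, permutation tests and descriptions used Python 3.11.15 and numpy 2.4.6. The fits and the read recovery were tested on simulated data.

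The 4 genes, the clock and D-box gene lists and the tests were chosen with earlier results of these data known. From each list, up to 4 genes rhythmic under both regimens with the largest smaller amplitude and up to 2 called genes with the largest mesor difference were named, and Rora was named after its values were seen. The genes most like each member were the 5 with the highest correlation, not all of which are reported here. Alternatives were the deposited scores, median-of-ratios rescaling, a pseudocount of 0.1, other minimum levels, leaving out replicates, ZT0 or ZT24, and a replicate block. Another length for Dbp and leaving out NRF ZT8 replicate 4 or NRF ZT12 replicate 1 were added after seeing the data.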

Additional observations from a re-analysis of the deposited data

Results flagged for a closer look

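In 56 sets of 4 mice (4 genes in 14 groups), 3 had a mouse far from the other 3, with a gap above 0.829 of the whole range. Chance flags about 1 in 20 such sets. Tef at DRF ZT0 had 1 mouse at 47.9 TPM, while the others lay between 58.0 and 59.1 TPM. Hlf at NRF ZT12 had 1 mouse at 84.8 TPM, while the others lay between 110 and 112 TPM. Nfil3 at DRF ZT16 had 1 mouse at 58.6 TPM, while the others lay between 48.5 and 49.5 TPM.

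The 24-h rhythm differed between the regimens for each of the 4 genes by limma's interaction test, with adjusted p of 1.19e-12 for Dbp, 1.43e-07 for Tef, 0.00399 for Hlf and 9.07e-05 for Nfil3.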

How the results depend on the processing

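The calls of 24-h rhythm under each regimen and of differential rhythm held for all 4 genes in each alternative run, as did the directions at ZT0, ZT4, ZT12 and ZT24 for the genes called there. The cause of the changes below was not tested. Leaving out 1 replicate number or 1 library moved the count of genes called for the 12-h component under DRF between 1 and 3, that at ZT16 and at ZT20 between 0 and 1, the mesor count between 0 and 1, and the mesor count on the TPM scale between 0 and 1. That last count was also 0 on the log2 scale, without ZT0 and with the shorter Dbp length. On the log2 scale the mesor differences turned positive for Dbp (0.204), Tef (0.0807) and Nfil3 (0.075). Differences never called changed sign: at ZT8, Dbp gave 0.26 in the deposited scores, 0.01 after median-of-ratios rescaling and -0.22 to 0.08 when 1 replicate was left out. In the same omissions at ZT8 Tef ranged from -0.005 to 0.30, Hlf from -0.21 to 0.09 and Nfil3 from -0.09 to 0.10. Hlf at ZT12 ranged from -0.28 to 0.01, and Tef between ZT24 and ZT0 under NRF from -0.19 to 0.07. The NRF gap from Dbp to Nfil3 was 9.77 h in the deposited scores and 9.76 h after rescaling, and that from Hlf 8.06 h in both, beyond their leave-one-out error. That error is smaller than the SE of the Nfil3 peak under NRF (0.281 h).

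Replicate numbers did not pair the mice: 351 same-numbered pairs had a median correlation of deviations of -0.002, 1053 other pairs 0.005, and 12 of 55 mice correlated best with their own number. With the replicate block no call of the 4 genes changed. Over all genes it moved the 12-h count under NRF from 78 to 28, and the 24-h rhythm counts little (6175 to 5734 under NRF, 4030 to 3858 under DRF). The count at ZT24 went from 1777 to 1348, and that of ZT24 against ZT0 under NRF from 60 to 45. This run also left out the unnumbered NRF ZT24 library, so the effect of the block alone cannot be told apart. Over the alternatives, counts over all genes ranged from 2180 to 4727 for rhythm under DRF, 2 to 144 and 1623 to 3584 for the 12-h component under NRF and DRF, 28 to 85 for ZT24 against ZT0 under NRF and 431 to 1252 for the mesor. At the time points they ranged from 1176 to 2457 (ZT0), 1751 to 3700 (ZT4), 838 to 2219 (ZT8), 1188 to 2681 (ZT12), 228 to 885 (ZT16), 957 to 2493 (ZT20) and 850 to 2043 (ZT24). At 26.2 reads in its lowest library, depth limits the trough values of Dbp.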
